A study of Mus musculus with 74 samples.

Results

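The 7 genes described here are *Cyp26a1*, *Dhrs9*, *BC089597*, *Aldh1a1*, *Aldh1a7*, *Rbp4* and *Ttr*, which encode enzymes and carriers of retinoid (vitamin A) metabolism and are 7 of the 14583 genes in an RNA-seq table of mouse liver. They were chosen by name with their RNA values in *Gps2* knockout livers known, and *Cyp26a1*, *Dhrs9* and *BC089597* were selected on their higher RNA level in the knockout. Their RNA values are therefore given as a description with no test. Every ChIP-seq peak that the authors annotated to a member was also taken, from 17 peaks of 31434 for RNA polymerase II (Pol II) to 99 of 115042 for NCOR in the *Ppara* line. *BC089597* appears in most ChIP-seq tables under the symbol *Rdh16f2* and was matched by its Entrez number, 216454. In mouse genome build mm9 the members lie at chr19:37772298-37776018 (*Cyp26a1*, plus strand), chr2:69218502-69242590 (*Dhrs9*, plus), chr10:127303530-127314373 (*BC089597*, plus), chr19:20676451-20717952 (*Aldh1a1*, plus), chr19:20767443-20802052 (*Aldh1a7*, minus), chr19:38191110-38199811 (*Rbp4*, minus) and chr18:20823751-20832825 (*Ttr*, plus).

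All livers came from C57BL/6 mice on chow, aged 8 to 12 weeks by the labels. The count columns of the H3K27ac and H3K4me3 libraries of the *Gps2* line are named as fed, and those of the other libraries name no feeding state. *Gps2* LKO mice carry floxed *Gps2* alleles and a Cre driven by the albumin promoter, which is active in hepatocytes, and their WT controls carry the same floxed alleles without Cre. *Ncor* LKO and *Smrt* LKO mice lack the corepressor NCOR or SMRT in liver, and *Ppara* KO mice lack the nuclear receptor PPARα in the whole body; each line has its own WT group. RNA-seq covered 4 WT and 4 *Gps2* LKO libraries, and ChIP-seq covered 3 libraries per group, apart from H3K27ac and H3K4me3 in the *Gps2* line and PPARα in the *Ppara* line (2 per group) and GPS2 and Pol II in the *Gps2* line (1 per group). ChIP-seq libraries were made from 2 to 4 pooled immunoprecipitations, and p-values measure only the spread between these libraries, which may be technical.

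RNA libraries held 13.2 to 20.1 M counts and ChIP-seq libraries 7.90 to 46.1 M tags (M, mega). ChIP-seq values are given as normalised tags, the tags a peak would hold in a library of 10000000 tags. *Gps2* itself, counted over the whole gene and not over the deleted part, had 261, 251, 266 and 239.9 normalised read counts in WT and 202, 157, 146 and 205 in LKO libraries, a ratio of 0.697 with no overlap. The hepatocyte markers were abundant and no marker of any liver cell type was at 0. In the H3K27ac libraries of the *Ncor* line, peaks on the Y chromosome held 1368 to 1518 tags and peaks annotated to *Xist* 12 to 22, whereas in all 6 libraries of the *Smrt* line the Y peaks held 0 tags and the *Xist* peaks 918 to 1048. The 4 H3K27ac libraries of the *Gps2* line had 1178 to 1316 Y tags. The study describes its mice as male, so the *Smrt* line goes against that description, and mouse line and sex cannot be told apart wherever the *Ncor* and *Smrt* lines are set side by side below.

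Retinol travels in blood bound to RBP4, which is itself bound to transthyretin (TTR). In cells retinol is stored as retinyl ester, oxidised to retinal by short-chain dehydrogenases and alcohol dehydrogenases, and oxidised again to retinoic acid by aldehyde dehydrogenases of the ALDH1A group. Retinoic acid is cleared by CYP26 enzymes. It activates RAR-RXR receptor pairs on direct repeats of a 6-base motif, and *Cyp26a1* and *Rarb* are classical targets of these receptors. Without ligand, nuclear receptors recruit corepressor complexes that contain NCOR or SMRT, the histone deacetylase HDAC3 and GPS2.

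The sequences of 4 GPS2 peaks are shown, because these peaks had high GPS2 tag counts near *Cyp26a1* and *Dhrs9* and hold a direct repeat. All are read from the plus strand of mouse genome build mm9, the build of the ChIP-seq files, and capitals mark both copies of the repeated motif. The first is the part of the *Cyp26a1* promoter peak that lies before the first exon (chr19:37772252-37772297). The second lies 1877 bases upstream of the *Cyp26a1* start site (chr19:37770353-37770489), and the third lies 4750 bases downstream of it, past the end of the gene (chr19:37776980-37777116). The fourth lies in intron 1 of *Dhrs9*, 5944 bases from its start site (chr2:69224395-69224531).
Cyp26a1 promoter: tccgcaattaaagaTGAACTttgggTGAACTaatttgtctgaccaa
Cyp26a1 upstream: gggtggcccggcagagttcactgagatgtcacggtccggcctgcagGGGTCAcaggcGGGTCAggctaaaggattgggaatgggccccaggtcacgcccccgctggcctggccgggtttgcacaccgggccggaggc
Cyp26a1 downstream: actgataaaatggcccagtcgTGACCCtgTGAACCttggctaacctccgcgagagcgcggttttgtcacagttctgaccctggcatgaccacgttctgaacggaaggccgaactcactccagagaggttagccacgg
Dhrs9 intron: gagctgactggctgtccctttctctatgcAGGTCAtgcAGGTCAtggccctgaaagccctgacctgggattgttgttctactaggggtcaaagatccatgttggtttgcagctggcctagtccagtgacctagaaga

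The search took the motif AGGTCA, its variant AGTTCA, its variant GGGTCA and its variant GGTTCA, in any pair, on both strands as direct repeats with 1 to 5 spacer bases (DR1 to DR5). Both *Cyp26a1* sequences before the gene hold a DR5, with the motifs on the minus strand in the promoter and on the plus strand upstream. The downstream *Cyp26a1* sequence holds a DR2 on the minus strand and the *Dhrs9* sequence a DR3 on the plus strand. Of 48910 GPS2 peaks of the same length as these whole peaks, 0.268% hold a DR5, 0.46% a DR2 and 0.182% a DR3, and 1.99% hold any of the repeats. Of the 45 member peaks outside *Ttr*, 6 (13.3%) hold a repeat, namely 4 of 13 for *Cyp26a1*, 1 of 8 for *Dhrs9* and 1 of 12 for *Aldh1a1*. No repeat count was made for the *Ttr* peaks, whereas the shares over all peaks leave out no gene. The *Aldh1a1* repeat is a DR1, 29236 bases from the start site. The range of spacings was set after sequences had been seen, and a match is a description of letters and not a bound site.

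The first question was how much of each member's RNA the livers held. Per kilobase of exon, the order of the members in WT was *Ttr* (5238 to 5577 RPKM, reads scaled to exon length and library size), *Rbp4* (2130.3 to 2229.6), *Aldh1a1* (520.4 to 540.3), *Aldh1a7* (91.8 to 95.2), *BC089597* (47.9 to 58.2), *Cyp26a1* (3.70 to 4.41) and *Dhrs9* (0.0633 to 0.145). No neighbours in this order overlapped in WT. In *Gps2* LKO *BC089597* (97.3 to 129) stood above *Aldh1a7* (79.1 to 92.3). *Aldh1a1* and *Aldh1a7*, and *BC089597* and its neighbours of the *Rdh16* family, are near copies, so the split of reads between them is uncertain.

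*Cyp26a1*, the hydroxylase that clears retinoic acid, had 112, 105, 125 and 107 normalised read counts in the WT libraries and 323, 269, 330 and 297 in the LKO libraries. The groups did not overlap, and the means of 112 ± 8.94 and 305 ± 27.6 (SD, n = 4) differed 2.71-fold. *Dhrs9*, a dehydrogenase that oxidises retinol and other substrates, was close to the detection limit, with 4, 3, 7 and 6 reads in WT and 11, 19, 19 and 11 in LKO libraries. Its normalised read counts were 4.83 ± 1.74 in WT and 15.4 ± 2.41 in LKO, a ratio of 3.18 with no overlap. *BC089597*, a predicted retinol dehydrogenase of the *Rdh16* family, had 1087, 1062, 963 and 1169 normalised read counts in WT and 2466, 1956, 2604 and 2387 in LKO, a ratio of 2.20. These 3 genes were selected on this difference.

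The carriers were also higher in LKO. *Rbp4*, the plasma retinol carrier, had 45259.7, 44943, 43915 and 45963 normalised read counts in WT and 73553, 53683, 63435 and 69264 in LKO, a ratio of 1.44. *Ttr* had 103447, 101648, 102444 and 108234 in WT and 213460, 148474, 178630 and 212102 in LKO, a ratio of 1.81. For both carriers the groups did not overlap. Differences between these groups were common, with 44.8% of all genes tested called by edgeR, so the separation is not particular to the carriers. LKO replicate 2 was the lowest LKO library for 6 of the 7 members (all but *Dhrs9*), and without it 3414 genes were called higher and 3532 lower over the whole table. The oxidases of retinal did not follow: *Aldh1a1* had 16809 to 17451 in WT and 16288 to 18004 in LKO, and *Aldh1a7* 3004 to 3117 in WT and 2589 to 3022 in LKO, so that both pairs of groups overlapped.

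**Figure D1:**
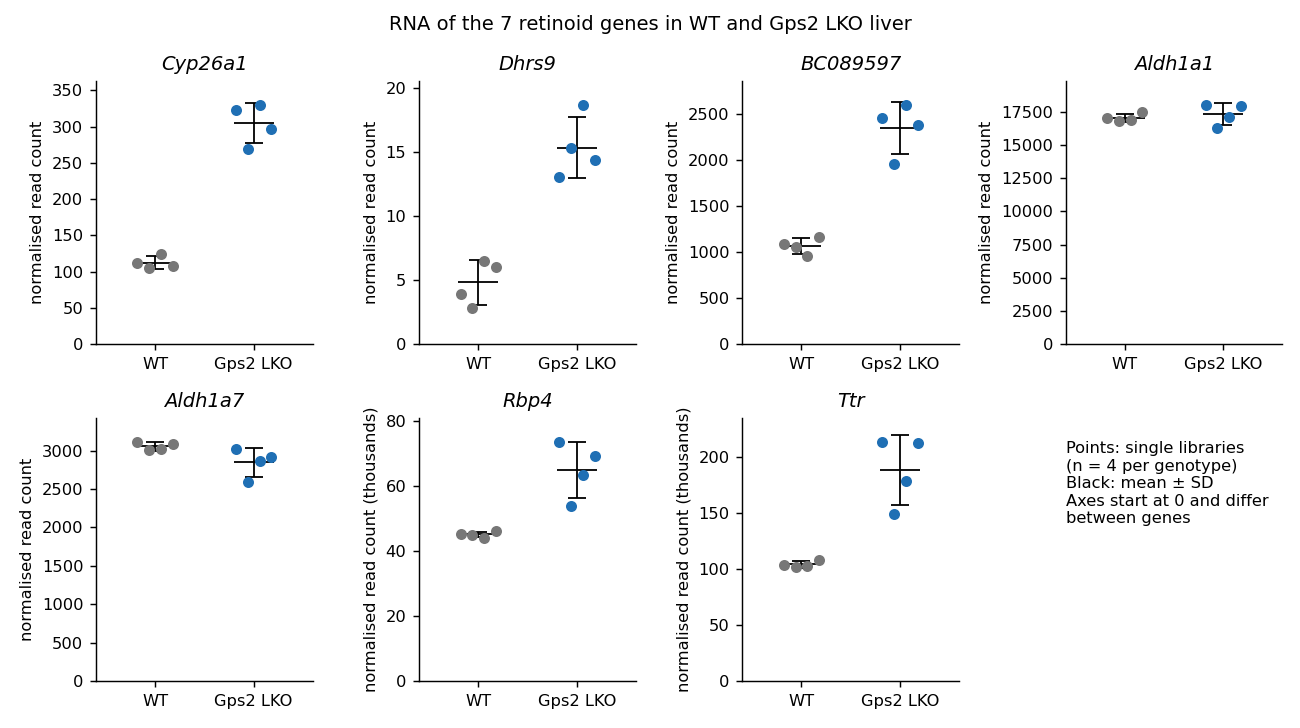
Normalised read counts of the 7 genes in WT and *Gps2* LKO liver, 1 panel per gene, with each library as a point and the mean ± SD in black (n = 4 per genotype). *Cyp26a1* (112 against 305 on average), *Dhrs9*, *BC089597*, *Rbp4* and *Ttr* show separate groups, whereas the groups of *Aldh1a1* and *Aldh1a7* overlap. Of all genes tested, 44.8% were called between these groups by edgeR.

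These values are on the scale of trimmed-mean (TMM) library factors, on which the median log2 fold change of all genes was 0.03. On total counts alone that median was -0.15, and 1561 genes were called higher and 4632 lower, against 2856 and 2621 on the TMM scale. The fitted log2 fold changes of the members were 1.43 for *Cyp26a1*, 1.66 for *Dhrs9*, 1.14 for *BC089597*, 0.86 for *Ttr* and 0.53 for *Rbp4* on the TMM scale. On total counts they were 1.25, 1.48, 0.95, 0.67 and 0.34 in that order, so the direction stayed. *Aldh1a1* moved from 0.02 to -0.16 and *Aldh1a7* from -0.10 to -0.29, and the sign of *Aldh1a1* thus depends on the scaling. Across the 12220 genes tested, log2 fold change fell with exon length (Spearman's rho -0.40 over genes, which are not independent replicates). With that trend removed the changes were 1.28 for *Cyp26a1*, 1.64 for *Dhrs9*, 0.89 for *BC089597*, 0.60 for *Ttr* and 0.29 for *Rbp4*.

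After removal of the group means, the genes whose log2 values over the 8 libraries were most like those of *Cyp26a1* were *Cenpb* (Pearson's r 0.963), *Trmu* (0.961), *Eri3* (0.954), *Gsdmd* (0.943) and *Tsfm* (0.935), out of 8560 genes with a mean of at least 100 normalised counts. The libraries share depth and preparation, and no p-value attaches to these likenesses.

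The rest of the pathway was read from a list of 50 other retinoid genes, of which 42 were in the table and 38 passed the filter on low counts. By edgeR's quasi-likelihood test with Benjamini-Hochberg adjustment over all genes, 12 of the 38 were higher and 10 lower in *Gps2* LKO, and 16 did not pass. That is 57.9% of the list against 44.8% of all genes tested, and the median log2 fold change was -0.00086 over the list and 0.03 over all genes. With the length trend removed the list had 10 genes higher and 12 lower. In bulk liver, fewer cells of a type and less RNA per cell cannot be told apart.

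Among the retinyl ester and carotenoid enzymes, 4 of 8 were higher and 2 lower. *Pnpla3*, a lipase with retinyl ester hydrolase activity, rose from 125 to 162 normalised read counts in WT to between 874 and 1045 in LKO, a log2 fold change of 2.73 ± 0.10 (SE, n = 4 per group) with an adjusted p of 9.9e-11 by edgeR. *Lrat*, which esterifies retinol in stellate cells, rose by 0.82 ± 0.10 (adjusted p = 1.97e-05, edgeR), from 149.9 to 178 in WT to between 247 and 311 in LKO. *Retsat*, which saturates retinol and is counted with the dehydrogenases and reductases below, fell by 0.99 on the log2 scale (adjusted p = 3.54e-08, edgeR). *Lipe*, hormone-sensitive lipase, fell by 0.60 (adjusted p = 0.000474, edgeR). The stellate cell marker list moved with *Lrat*, which it contains: its summed level was 2903 to 3010.4 normalised counts in WT and 5341 to 5521 in LKO. Of its 8 markers 7 were called higher (87.5%), against 44.8% of all genes tested called in either direction. The part of cell composition in these values was not tested.

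Of 3 carriers and uptake receptors, none was higher and 3 were lower. *Lrp2*, an endocytic receptor that takes up retinol-binding protein, had 36.5, 44.4, 59.2 and 48.6 normalised read counts in WT and 10.7, 10.5, 10.8 and 6.5 in LKO, a log2 fold change of -2.25 ± 0.23 (adjusted p = 6.01e-06, edgeR). *Lrp2* is also the gene that faces *Dhrs9* on chromosome 2. *Dhrs9* runs on the plus strand and *Lrp2* on the minus strand (chr2:69262397-69424122 in mm9), so their ends point at each other, and the strand setting of the RNA counting is not stated in the sources used here.

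Of 16 dehydrogenases and reductases, 7 were higher and 2 lower, and 6 and 5 with the length trend removed. *Rdh16*, a retinol dehydrogenase of the same family as *BC089597*, rose by 0.87 ± 0.06 on the log2 scale (adjusted p = 2.47e-07), its relative *Rdh9* rose by 0.60 ± 0.06 (adjusted p = 5.17e-06), *Adh1*, the main liver alcohol dehydrogenase, rose by 0.71 (adjusted p = 5.94e-06), and *Hsd17b6* fell by 0.83 (adjusted p = 4.01e-07), all by edgeR. Of 3 other genes for the oxidation of retinal, none was higher, and the aldehyde oxidases *Aox3* and *Aox1* fell by 1.00 and 0.68 (adjusted p = 1.6e-07 and 2.59e-05, edgeR). The only other retinoic acid hydroxylase tested, *Cyp26b1*, had a log2 fold change of -0.11 (adjusted p = 0.519, edgeR).

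Of 6 receptors, 1 was higher and 1 lower. *Rarb*, a retinoic acid receptor, rose from between 49.3 and 58.7 normalised read counts in WT to between 99.5 and 128 in LKO (1.06 ± 0.13, adjusted p = 2.28e-05, edgeR). *Rxra*, the RXR of hepatocytes, had -0.26 (adjusted p = 0.0124, edgeR), a call that was lost once the length trend was removed. Of 5 listed genes known to respond to retinoic acid, 2 were higher (*Rarb* and *Lrat*) and none lower. The shares called were 40% of these genes and 33.3% of the receptors, both under the 44.8% of all genes tested. For the other parts they were 75% (ester and carotenoid enzymes), 100% (carriers and uptake), 56.25% (dehydrogenases and reductases) and 66.7% (retinal oxidation).

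**Figure D2:**
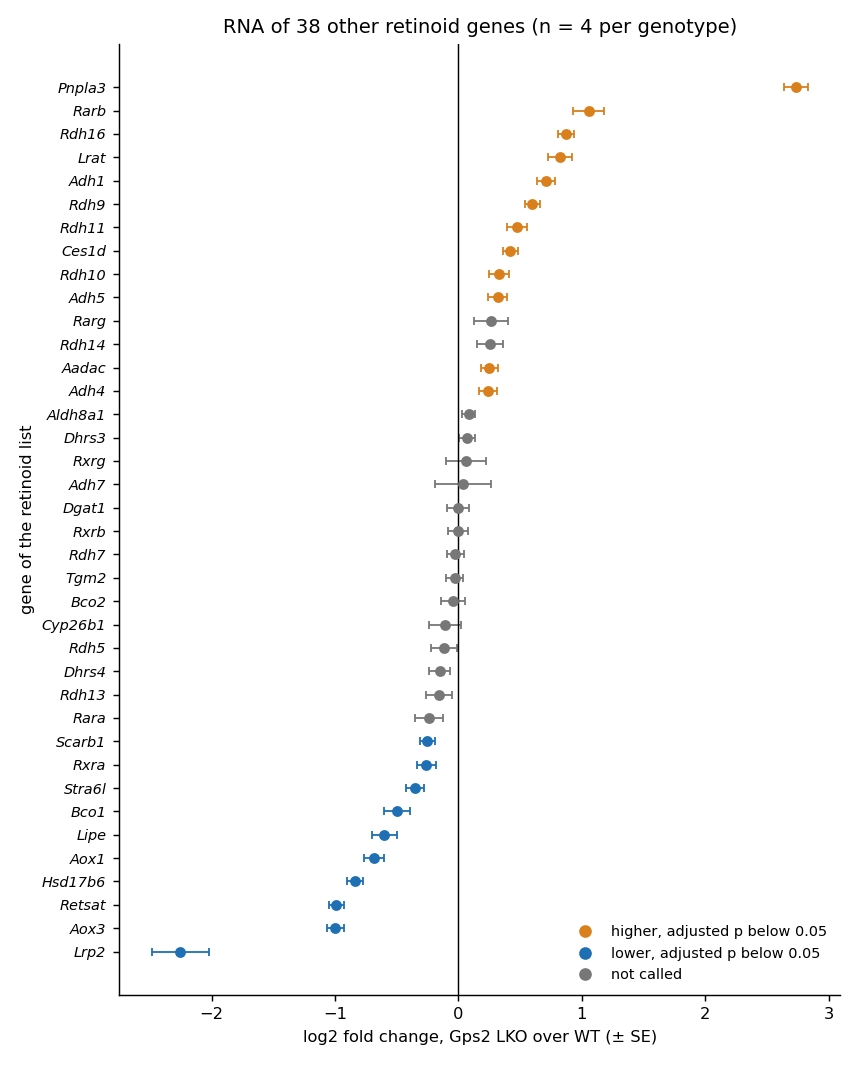
Log2 fold change (*Gps2* LKO over WT, ± SE, n = 4 per genotype) of the 38 other retinoid genes that were tested, ordered by value, with colours for the 12 genes called higher, the 10 called lower and the 16 not called. *Pnpla3* (2.73) and *Lrp2* (-2.25) stand at the ends.

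The summed levels of the other marker lists also differed between the groups. Summed hepatocyte markers were 1600030 to 1660840 normalised counts in WT and 2150740 to 2521220 in LKO, with 2 of 6 markers higher and 1 lower. Most of this sum was *Alb*, the gene for albumin, with 1301630 to 1364270 in WT and 1844340 to 2177320 in LKO. Macrophage markers summed to 1965 to 2042 in WT and 2642 to 2994 in LKO (5 of 6 higher), endothelial markers to 1659 to 1758 and 1826 to 2006 (2 of 5 higher), and cholangiocyte markers to 1024 to 1093 and 1449.5 to 1773 (3 of 5 higher). The shares called in either direction were 50% (hepatocyte), 83.3% (macrophage), 40% (endothelial) and 60% (cholangiocyte), against 44.8% of all genes tested. The hepatocyte and endothelial shares were thus near that of all genes. The part of these cell types in the members' RNA values was not tested.

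GPS2 occupancy at the members was measured in 1 WT and 1 *Gps2* LKO library of 15.5 and 14.8 M tags, so it has no replicate check and no test. GPS2 tags were fewer in LKO at all 50 member peaks. Summed over them, 1304 tags in WT stood against 67 in LKO, a ratio scaled to library totals of 0.0538 (exact 95% interval 0.0415 to 0.0688, counting error only), beside 0.0439 for all peaks of the table. By gene the ratio was 0.0440 for *Cyp26a1*, 0.0466 for *Dhrs9*, 0.0566 for *BC089597*, 0.0526 for *Aldh1a1*, 0.110 for *Aldh1a7*, 0.0882 for *Rbp4* and 0.0419 for *Ttr*.

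The tallest member peaks were those in intron 1 of *Dhrs9*, with 121 tags in WT and 2 in LKO, and downstream of *Aldh1a1*, 52424 bases from its start, with 120 and 4. At *Cyp26a1* the downstream peak with the DR2 had 102 and 1 tags, the upstream peak with the DR5 83 and 0 (at least 26.4-fold lower scaled to library totals, against 3 counts), and the promoter peak 53 and 1. The *BC089597* promoter peak was lower, with 20 and 2 tags, and that of *Rbp4* had 39 and 0. Of the genes whose RNA groups overlapped, *Aldh1a1* thus had a WT peak about as tall as those of *Cyp26a1* and *Dhrs9*, while the tallest WT peak of *Aldh1a7* had 17 tags.

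**Figure D3:**
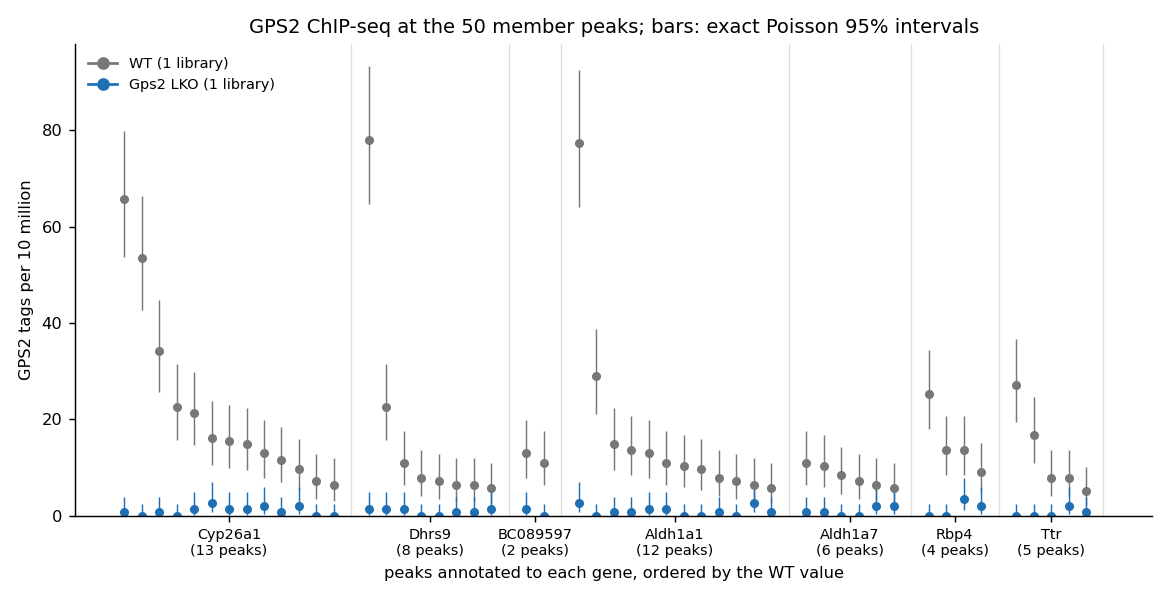
Normalised GPS2 tags (tags per 10000000) at the 50 peaks annotated to the members, grouped by gene and ordered by the WT value, in the single WT and single LKO library, with exact Poisson 95% intervals. LKO values lie below the WT values at every peak, and the tallest WT peaks are those of *Dhrs9* (121 tags), *Aldh1a1* (120) and *Cyp26a1* (102).

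The next question was whether chromatin marks of active promoters and enhancers differed at the members in *Gps2* LKO. For H3K27ac, 33 of 46 member peaks of the table shared with H3K4me3 lay in enough H3K27ac peak lists to be tested, and 3 of 33 were called by edgeR, 2 higher and 1 lower, against 1.42% of all peaks. An unadjusted p under 0.05 was found at 16 of 33, against 14.6% of all peaks. With TMM factors 2 member peaks were called and by DESeq2 4. The split over all peaks was 568 higher and 100 lower, against 285 and 97 with TMM factors and 439 and 183 by DESeq2. At the *BC089597* promoter H3K27ac was 202 and 164 normalised tags in WT and 320.2 and 308 in LKO, a log2 fold change of 0.78 ± 0.11 (SE, n = 2 per group, adjusted p = 0.0254, edgeR). The *Aldh1a1* peak 2826 bases from the start had 714 and 655 in WT and 929 and 1031 in LKO (0.52 ± 0.09, adjusted p = 0.042, edgeR), at a gene whose RNA groups overlapped, a call that was lost with TMM factors (adjusted p = 0.0586, and 0.00112 to 0.33 over the alternatives). The peak that fell lies inside an intron of *Lrp2*, is annotated to *Dhrs9* at 86285 bases from its start, and had 75.9 and 54.5 in WT and 22.6 and 21.4 in LKO (-1.56 ± 0.21, adjusted p = 0.022, edgeR).

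The promoter peak of *Cyp26a1* had 310.2 and 302 normalised tags of H3K27ac in WT and 425 and 387 in LKO (0.41 ± 0.09, adjusted p = 0.0737, edgeR), groups that did not overlap but did not pass the threshold. In *Dhrs9* the peak over the GPS2 peak in intron 1 had 131 and 101 in WT and 225 and 170.2 in LKO (0.77, adjusted p = 0.0796, edgeR), and fitted changes within the gene ran from 0.77 to 1.37 with none called by edgeR. DESeq2 called the intron 1 peak (adjusted p = 0.0317, and 0.000361 to 0.436 over the alternatives). The peak that covers *Rbp4* had 1551 and 1529 in WT and 1994 and 2073 in LKO (0.40, adjusted p = 0.056, edgeR), and that over *Ttr* 1252 and 1126 against 1377 and 1403 (0.23, adjusted p = 0.269, edgeR). At *Aldh1a7* the tallest peak had 204 and 209 in WT and 264 and 181 in LKO, and the groups overlapped. No member peak was called without WT replicate 1 or without WT replicate 2, and 7 and 9 were called without LKO replicate 1 and 2. Over all 47108 peaks the counts without these libraries were 0, 3, 3006 and 1696 in the same order.

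For H3K4me3, the mark of active promoters, 1 of the 12 member peaks tested was called by edgeR against 0.916% of all peaks, and 7 had an unadjusted p under 0.05, against 8.05% of all peaks. It was the *Cyp26a1* promoter, with 386 and 279 normalised tags in WT and 518 and 794 in LKO (0.98 ± 0.17, adjusted p = 0.0126, edgeR). With TMM factors, or without WT replicate 2, no member peak was called, and 2 were without LKO replicate 2. DESeq2 did not call this peak (adjusted p = 0.351, and 1.38e-25 to 0.351 over the alternatives) and called the *BC089597* promoter in its place (adjusted p = 0.0423, and 1.32e-05 to 0.763 over the alternatives). The *BC089597* promoter had 182 and 136 in WT and 309 and 217 in LKO (0.72, adjusted p = 0.107, edgeR), and the *Dhrs9* promoter 46.9 and 32.6 against 80.5 and 50.6 (0.72, adjusted p = 0.456, edgeR). The LKO libraries lay above the WT libraries at these promoters and also at peaks of *Aldh1a1*, *Aldh1a7*, *Rbp4* and *Ttr* that were not called. At the tallest *Ttr* peak the groups overlapped. With 2 libraries per group such an order easily arises by chance, and its share over all peaks is not given here, so no rise is read from it.

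Pol II was again measured in 1 library per group, of 11.7 and 11.9 M tags. Its 17 member peaks held 1151 tags in WT and 1175 in LKO, a ratio scaled to library totals of 1.00 (exact 95% interval 0.922 to 1.09), beside 1.06 for all peaks, and 9 peaks were higher and 8 lower. *Cyp26a1* had 132 and 116 tags (ratio 0.861, 0.665 to 1.11), *BC089597* 63 and 44 (0.685, 0.455 to 1.02) and *Dhrs9* 5 and 12 (2.35, 0.771 to 8.52). The upper bounds of 1.11 and 1.02 cover the counting error of 1 library per group only, and at *Dhrs9* a difference was not detectable at this depth.

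Loss of NCOR in liver was compared with its own WT by H3K27ac. Here 14 of 44 member peaks were called by edgeR, all higher in *Ncor* LKO, against 3.12% of all peaks (1594 higher and 551 lower). Of the 13 peaks annotated to *Dhrs9*, 11 rose, so most of the 14 calls came from a single locus. Neighbouring peaks read in the same libraries are not independent, and the share called is not one of separate observations. By their centres the 11 peaks were all 7 within the gene, the 1 upstream, 2 of 3 between *Dhrs9* and *Lrp2*, and 1 of 2 in *Lrp2*. The peak over the GPS2 peak in intron 1 (chr2:69222525-69226429) had 98.3, 101 and 64.4 normalised tags in WT and 368, 346 and 274 in LKO, a log2 fold change of 1.91 ± 0.18 (SE, n = 3 per group, adjusted p = 0.00204, edgeR). The peak at the *Dhrs9* start had 26.2, 22.8 and 24.2 in WT and 87.3, 58.8 and 68.3 in LKO (1.55 ± 0.18, adjusted p = 0.00363, edgeR). A peak over the end of the gene (chr2:69241679-69245346), centred 24993 bases from the start, had 77.9, 68.8 and 80.3 in WT and 231, 200.3 and 212 in LKO (1.503 ± 0.12, adjusted p = 0.00152, edgeR). In each of these peaks all LKO libraries lay above all WT libraries.

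At *Cyp26a1*, 2 distal peaks rose in *Ncor* LKO, at 163066 and 165843 bases from the start (0.83 and 1.09, adjusted p = 0.0422 and 0.0308, edgeR). Its promoter peak had 261, 211 and 227 in WT and 546, 290.1 and 380.4 in LKO (0.80 ± 0.20, adjusted p = 0.0573, edgeR). A peak past the end of *Aldh1a1*, 57380 bases from its start, was the other one called (1.118, adjusted p = 0.0492, edgeR). The *BC089597* promoter had 161, 197 and 270.4 in WT and 234, 137.1 and 162 in LKO, overlapping groups with an adjusted p of 0.702 by edgeR, and no peak of *Aldh1a7*, *Rbp4* or *Ttr* was called. The *Lrp2* intron peak that fell in *Gps2* LKO had 46.4, 47.7 and 46.7 in WT and 15.1, 53.4 and 30.1 in *Ncor* LKO (adjusted p = 0.55, edgeR), with groups that overlap. The count of 14 fell to 7, 8 and 9 without WT replicate 2, WT replicate 3 and LKO replicate 3, and 7 of the *Dhrs9* calls, the 3 with values above among them, were made under all 10 alternatives.

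In the *Smrt* line no member peak was called for H3K27ac, 0 of 44 by edgeR and 0 by DESeq2, against 0% of all peaks by edgeR, with 3 at an unadjusted p under 0.05 (5.93% of all peaks). In intron 1 of *Dhrs9* the peak had 329, 275 and 127 normalised tags in WT and 294, 355 and 327 in *Smrt* LKO, and the *Dhrs9* start peak 70.9, 46.1 and 25.1 against 66.2, 64.3 and 56.7. At least 1 WT library of the *Smrt* line thus lay within the range of *Ncor* LKO at each of these peaks, and WT replicate 3 was the lowest. The *Cyp26a1* promoter had 353, 281 and 406 in WT and 291, 318 and 304 in LKO. The *BC089597* promoter had 614 to 730.5 in the WT libraries of the *Smrt* line, above the 161 to 270.4 of the *Ncor* line, and the *Lrp2* intron peak had 1.7 to 2.9, below the 46.4 to 47.7 of the *Ncor* line. Line and sex cannot be told apart in these side by side values.

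The difference of the *Ncor* LKO and *Smrt* LKO effects was tested as an interaction over all 12 libraries. It was called at 1 of 44 member peaks, against 0.426% of all peaks, with 15 at an unadjusted p under 0.05 (11.2% of all peaks) and 6 called by DESeq2. The peak was that over the end of *Dhrs9*, with a log2 fold change of 1.503 in *Ncor* LKO and 0.08 in *Smrt* LKO, a difference of 1.42 ± 0.24 (adjusted p = 0.0219, edgeR, and 3.16e-05 to 0.0789 over the alternatives). Without *Ncor* WT replicate 2 or 3, or *Smrt* LKO replicate 1 or 3, no member peak was called, while 2 were without *Ncor* LKO replicate 2 and 6 without *Smrt* WT replicate 3. At the other *Dhrs9* peaks the difference did not pass the threshold, with 1.88 (adjusted p = 0.0614, edgeR) the nearest.

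**Figure D4:**
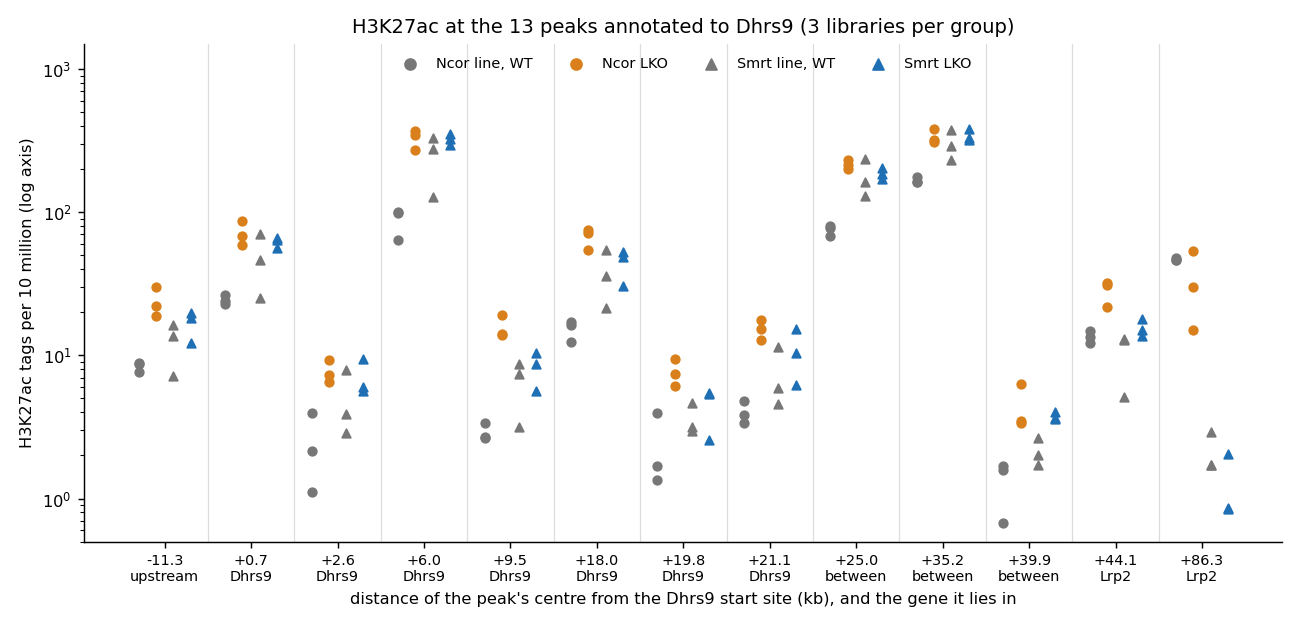
Normalised H3K27ac tags (log axis) at the 13 peaks annotated to *Dhrs9*, by distance from its start site, in the 3 WT and 3 LKO libraries of the *Ncor* line (circles) and of the *Smrt* line (triangles). *Ncor* LKO lies above its WT at all but the last peak, in *Lrp2*, while the *Smrt* groups overlap at peaks such as that in intron 1 (127 to 329 in WT, 294 to 355 in LKO).

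NCOR occupancy in *Gps2* LKO was called at 0 of 72 member peaks by edgeR, against 0.0173% of all peaks, with 5 at an unadjusted p under 0.05 (2.79% of all peaks) and 0 by DESeq2. Over all peaks edgeR called 10 higher and 4 lower, and DESeq2 43 and 33. The *Dhrs9* intron 1 peak had 103, 99.6 and 71.9 normalised tags in WT and 101, 129 and 54.2 in LKO. The downstream *Cyp26a1* peak had 135, 117 and 89.3 against 88.2, 160.4 and 57.0, and the *BC089597* promoter 49.7, 45.4 and 32.5 against 55.4, 55.0 and 33.6. In each, the groups overlapped.

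GPS2 occupancy in *Ncor* LKO was called at no member peak, 0 of 53 by edgeR, against 0.0338% of all peaks, with 23 at an unadjusted p under 0.05 (34.3% of all peaks) and 1 by DESeq2. At the peaks annotated to *Dhrs9* the fitted log2 fold changes ran from -2.49 to -0.09. The *Dhrs9* intron 1 peak had 116, 134 and 47.2 in WT and 23.2, 30.1 and 18.7 in LKO (adjusted p = 0.0761, edgeR). The downstream *Cyp26a1* peak had 110.0, 109.8 and 38.0 against 37.5, 49.0 and 24.9 (adjusted p = 0.139, edgeR), and WT replicate 3 was the lowest WT library at both and lay within the LKO range at *Cyp26a1*. The median log2 fold change of the member peaks was -1.25, beside -1.12 for all peaks. WT replicate 3 had 3.07% of its tags in peaks, against 8.23% and 7.82% for the other WT libraries and 2.45% to 3.15% for LKO libraries. Without WT replicate 3, 38 of 53 member peaks were called, a count that hangs on 1 library with few tags in peaks. It is not a result about the members, whose median was near that of all peaks. On total tags the calls over all peaks were 0 higher and 19 lower, whereas with TMM factors they were 999 and 258, and 394 and 66 by DESeq2.

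PPARα, the fatty acid receptor that also pairs with RXR, was measured in *Gps2* LKO against 3 WT libraries that differed from each other by less than the sampling noise (mean chi-square 0.987 to 0.999 per peak) and were counted as 1 sample. The WT arm thus has 1 sample, and the p-values rest on the spread of the 3 LKO libraries, with WT assumed to vary alike. On that footing edgeR called 30 of 95 member peaks higher and none lower, against 21.7% of all peaks, with 55 at an unadjusted p under 0.05 (37.3% of all peaks). LKO libraries had 28.9% to 32.1% of their tags in peaks and WT libraries 19.2% to 21.9%, and the median log2 fold change was 0.62 over all peaks and 0.81 over the member peaks. The calls rested on this scale: over all peaks they were 22086 higher and 151 lower, but 553 and 445 with TMM factors and 15 and 7 by DESeq2, and 1 member peak was called with TMM factors and none by DESeq2. That 1 peak lies in *Dhrs9*, 18423 bases from its start, with 11.4, 9.5 and 5.6 normalised tags in WT and 23.0, 33.2 and 44.0 in LKO (1.97 ± 0.36, adjusted p = 1.35e-05, edgeR). The count was 17 without LKO replicate 2 and 17 without LKO replicate 3.

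At *Cyp26a1* the PPARα peak at the promoter had 30.4, 26.6 and 28.2 in WT and 54.0, 64.4 and 53.9 in LKO (1.02, adjusted p = 0.00414, edgeR), which is 0.40 above the median of all peaks. The tallest peaks of both genes were not called. The *Dhrs9* intron 1 peak had 219, 222 and 202 in WT and 292, 233 and 207 in LKO (0.17, adjusted p = 0.617, edgeR), and the downstream *Cyp26a1* peak 91.1, 113 and 108 against 144, 137.4 and 134 (0.39, adjusted p = 0.225, edgeR). At these 2 peaks the sign turned with TMM factors. The *BC089597* promoter had 10.1, 10.4 and 11.3 in WT and 19.5, 22.7 and 24.6 in LKO (1.09, which is 0.47 above the median of all peaks, adjusted p = 0.023, edgeR), and like the *Cyp26a1* promoter it was not called with TMM factors or by DESeq2.

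PPARα in *Ncor* LKO was called at 0 of 90 member peaks by edgeR, against 0.196% of all peaks, with 5 at an unadjusted p under 0.05 (5.23% of all peaks) and 0 by DESeq2. Intron 1 of *Dhrs9* had 119.7, 116 and 60.9 in WT and 94.1, 97.1 and 129 in LKO, and the downstream *Cyp26a1* peak 109.8, 96.1 and 54.2 against 84.4, 86.4 and 110.0, both overlapping. Without WT replicate 3, which again had the fewest tags in peaks (8.96%), 2 member peaks were called.

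The last comparisons used the *Ppara* line. With the PPARα antibody, 13 of 48 member peaks fell in *Ppara* KO by edgeR, against 27.6% of all peaks, with 23 at an unadjusted p under 0.05 (41.3% of all peaks). The median log2 fold change of the member peaks was -1.58, beside -1.68 for all peaks, so the members' share and change were near those of the table. The *Dhrs9* intron 1 peak had 22.7 and 22.2 normalised tags in WT and 0.69 and 0.73 in KO (-4.82 ± 0.55, n = 2 per group, adjusted p = 2.18e-05, edgeR). The peak downstream of *Aldh1a1* had 43.2 and 27.5 in WT and 2.1 and 2.2 in KO (-4.01 ± 0.43, adjusted p = 1.27e-05, edgeR). These 2 were also called with TMM factors and by DESeq2, which called no other member peak. The downstream *Cyp26a1* peak had 16.3 and 16.1 in WT and 8.24 and 0.73 in KO, with KO libraries that stood apart from each other (-1.79, adjusted p = 0.0207, edgeR). Near the *Dhrs9* site called with TMM factors in *Gps2* LKO, a peak 18384 bases from the start had 1.42 and 0.76 in WT. It had 0.69 and 0.73 in KO (-0.58, adjusted p = 0.752, edgeR). The *BC089597* promoter had 0.71 and 2.29 against 0 and 0.73 (-1.81, adjusted p = 0.346, edgeR). No peak was listed at the *Cyp26a1* promoter. With so few tags, a loss of signal in KO was not shown at these sites. Over all peaks 7 were higher and 11112 lower, against 181 and 1267 with TMM factors and 114 and 455 by DESeq2. No member peak was called without either WT library, 8 were without KO replicate 1 and 6 without KO replicate 2.

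GPS2 in *Ppara* KO was called at 0 of 29 member peaks by edgeR, against 0.273% of all peaks, with 9 at an unadjusted p under 0.05 (23% of all peaks) and 0 by DESeq2. The member median was -1.02, beside -0.93 for all peaks. The calls over all peaks were 0 higher and 76 lower, but 15 and 27 with TMM factors. Intron 1 of *Dhrs9* had 63.1, 47.5 and 110.8 in WT and 35.0, 36.3 and 17.3 in KO (adjusted p = 0.149, edgeR), and the downstream *Cyp26a1* peak 44.4, 28.0 and 66.9 against 27.7, 28.0 and 14.4.

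NCOR in *Ppara* KO was called at 1 of 99 member peaks by edgeR, against 2.64% of all peaks, with 14 at an unadjusted p under 0.05 (15.5% of all peaks). It lies inside *Lrp2*, 65597 bases from the *Dhrs9* start, and had 2.4, 7.7 and 1.7 in WT and 13.1, 15.5 and 7.1 in KO (1.58 ± 0.48, adjusted p = 0.0437, edgeR), with overlapping groups. It was lost without WT replicate 1, WT replicate 3 or KO replicate 2. The median over all peaks was -0.32, with 157 higher and 2885 lower, against 873 and 1206 with TMM factors and 154 and 452 by DESeq2. At the intron 1 peak of *Dhrs9*, NCOR had 185, 189 and 194 in WT and 179.8, 160.2 and 114 in KO, and the downstream *Cyp26a1* peak 209.7, 175 and 226 against 178, 179 and 127.

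**Figure D5:**
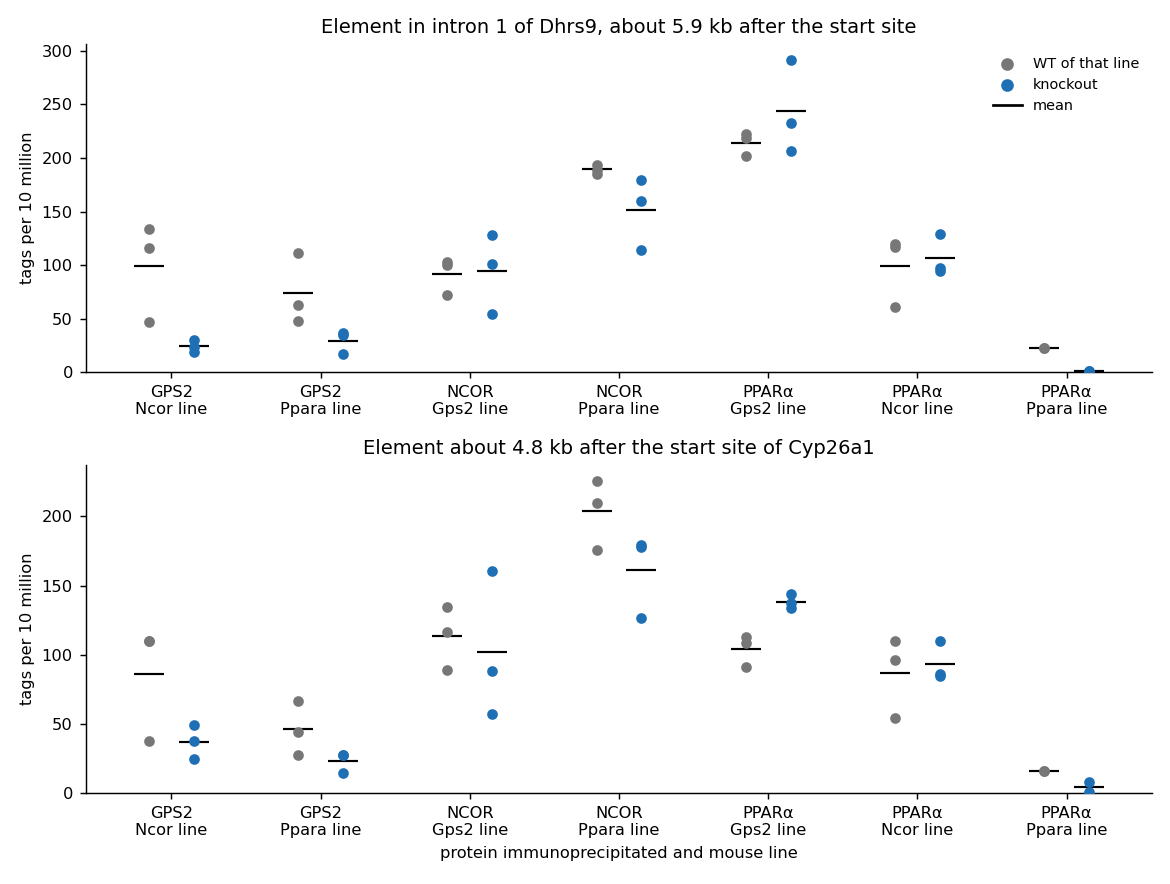
Normalised tags at the intron 1 peak of *Dhrs9* and the downstream peak of *Cyp26a1* for each antibody and mouse line, with WT of that line in grey, knockout in blue and the mean as a line (3 libraries per group, 2 for PPARα in the *Ppara* line, and 3 WT libraries counted as 1 sample for PPARα in the *Gps2* line). For *Dhrs9*, GPS2 in *Ncor* LKO (18.7 to 30.1) lay below its WT (47.2 to 134), and NCOR in *Gps2* LKO (54.2 to 129) overlapped its WT (71.9 to 103). The GPS2 difference was not called (adjusted p = 0.0761, edgeR), and the median log2 fold change of all GPS2 peaks in *Ncor* LKO was -1.12.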

How the data were processed

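The authors deposited raw read counts per gene for RNA-seq and raw tag counts per merged peak for each ChIP-seq experiment, with HOMER annotation of peaks on mm9 to the nearest gene. The methods and the submitters' processing notes name HISAT2, Bowtie2, HOMER, featureCounts and SAMtools. For the RNA counts the methods name HOMER and the notes featureCounts, which was not settled, and the strand setting is not given in the sources used here. Columns with the authors' own fold changes and p-values were not used, nor were the peak lists, except that H3K27ac and H3K4me3 peaks of the *Gps2* line had to overlap at least 2 of that mark's 4 deposited peak lists. Libraries were grouped by the labels. Counts were tested with edgeR 4.0.16 (R 4.3.3; quasi-likelihood, Benjamini-Hochberg over the whole table, called at an adjusted p under 0.05), with TMM factors and filterByExpr for RNA and with total tags as library sizes and at least 1 tag for ChIP-seq. DESeq2 1.42.0 was an alternative. Tags are given per 10000000 (normalised tags), and intervals and floors (3 counts) cover counting error only. The scripts were tested on simulated data. Named were the 12 list genes with the largest change past the threshold and, per member and table, the nearest peak, the highest peak and up to 3 called peaks. *Cyp26b1* and *Rxra* were named after their values were seen. The members and lists were chosen with earlier results of these data known. Of the lists, 1 gene is not reported here.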

Additional observations from a re-analysis of the deposited data

Results flagged for a closer look

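Of 38 groups of 4 libraries checked for a single library far from the others, 1 was marked, and chance marks about 1 in 20. For *Lrp2* in the LKO group, the gap between the lowest library and its neighbour was 0.925 of the whole range, with 6.5 normalised read counts in LKO replicate 4 and 10.5 to 10.8 in the others. All LKO libraries remained below all WT libraries.

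H3K27ac at the peak over the end of *Dhrs9*, 24993 bases from its start, differed in its knockout effect between the *Ncor* and *Smrt* lines, by 1.42 ± 0.24 on the log2 scale (adjusted p = 0.0219, edgeR). The lines also differ in their Y-chromosome and *Xist* tags, and line and sex cannot be told apart.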

How the results depend on the processing

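The number of calls among the 38 retinoid genes, 22 in the report, was 21 to 24 under the alternatives, with *Rxra* among the calls lost once the length trend was removed, and of the 12 genes given in full none lost its call or turned. The ChIP-seq counts did not stay. With TMM factors 0 member peaks were called for H3K4me3 in *Gps2* LKO (1 in the report), 1 for GPS2 in *Ncor* LKO (0), 1 for NCOR in *Gps2* LKO (0), 2 for NCOR in *Ppara* KO (1), 1 for PPARα in *Gps2* LKO (30), 2 for PPARα in *Ncor* LKO (0) and 2 for PPARα in *Ppara* KO (13). DESeq2 called 1 for GPS2 in *Ncor* LKO, 0 for PPARα in *Gps2* LKO, 2 for PPARα in *Ppara* KO and 6 for the *Ncor* against *Smrt* difference (1). A stricter filter on low tags (filterByExpr) gave 1, 0 and 6 for GPS2 in *Ncor* LKO, NCOR in *Ppara* KO and PPARα in *Ppara* KO. With all peaks of the shared histone table, 6 H3K27ac peaks (3) and 0 H3K4me3 peaks were called in *Gps2* LKO. With the 6 PPARα libraries of the *Gps2* line kept separate, 52 peaks were called. Scaled to tags in all peaks, the GPS2 ratio at member peaks was 1.23. In the PPARα data of *Gps2* LKO, the sign turned at the *Dhrs9* intron 1 peak (TMM -0.44, DESeq2 -0.43) and the downstream *Cyp26a1* peak (-0.21 and -0.21). The cause was not tested.

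No table with 3 or more pairs had every pair of same-numbered libraries correlated above 0.1 (RNA 0.017 to 0.115). For NCOR in the *Ppara* line replicates 1, 2 and 3 had -0.019, 0.255 and 0.271. Tables with 2 pairs had 0.113 (H3K27ac), 0.103 (H3K4me3) and 0.041 (PPARα). The numbers were taken as names of libraries and not as pairs, and this rule cannot exclude pairing. With a replicate block the calls were 12 for H3K27ac and 3 for H3K4me3 in *Gps2* LKO, 10 for GPS2 in *Ncor* LKO, 1 for NCOR in *Gps2* LKO, 0 for NCOR in *Ppara* KO, 50 for PPARα in *Gps2* LKO (6 libraries separate), 0 for PPARα in *Ppara* KO and 0 for the difference.

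Leaving out 1 library at a time gave 0 to 9 calls for H3K27ac and 0 to 2 for H3K4me3 in *Gps2* LKO, 7 to 12 for H3K27ac in *Ncor* LKO, 0 to 38 for GPS2 in *Ncor* LKO, 0 to 2 for NCOR in *Ppara* KO, 17 to 38 for PPARα in *Gps2* LKO, 0 to 2 for PPARα in *Ncor* LKO, 0 to 8 for PPARα in *Ppara* KO and 0 to 6 for the difference. Groups left with 1 library were assumed to vary like the other. Of 583 alternative values for 60 single peaks, 392 stayed on their side of the threshold, 163 lost the call, 24 gained it and 4 turned. *Dhrs9* RNA rested on 3 to 19 reads a library, and the libraries with 1 per group have no replicate check.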
